A study of Homo sapiens with 6 samples.

Results

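Stemness-associated genes are the genes whose products mark or maintain stem-like tumor cells in squamous carcinoma. The list held 10 genes, and its members were the rows of the deposited gene table that carried one of these symbols. Of the 14959 genes of the table, 9 were members: CD44, PROM1, LGR4, SOX2, KLF4, MYC, BMI1, ALDH1A3 and ALDH3A1. NANOG, a pluripotency transcription factor on the list, was not analysed here. The rule used gene names and no measured value, although earlier results of these data were known when the list was drawn up.

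RNA was sequenced from UM-SCC1 cells, an established line of head and neck squamous cell carcinoma (HNSCC). One group of 3 libraries came from cells transfected with miR-204-5p mimics, which are synthetic double-stranded RNAs that act as the mature miRNA. The other group of 3 libraries came from the same line transfected with control mimics. A culture time of 48 h is stated for transfected cells in general, with no separate time for sequencing. The model is 1 cell line carrying a transient excess of 1 miRNA, and the labels do not say whether the 3 libraries of a group were separate cultures, so the p-values measure the spread between libraries, which may be technical. Fewer cells expressing a gene and less RNA per cell cannot be told apart in RNA from whole cultures.

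Each value is an FPKM, a count of sequenced fragments scaled to transcript length and library depth. Counts were not part of the table. Of the low values among 1174 genes with a single annotated transcript, 26.5% to 30.1% per library lay near whole multiples of a step. At other steps the median share was 3.12% to 3.43%. The best step placed the depth at about 13.1 to 16.4 M (mega) fragments per library. At that depth, 1 fragment on a transcript of 1 kb was worth 0.0610 to 0.0766 FPKM. All 10 markers of squamous epithelium reached a mean of 1 FPKM, with summed levels of 840 to 927 FPKM after miR-204-5p mimics and 960 to 983 FPKM after control mimics, and their part in the results below was not tested. Of 7 fibroblast markers only COL1A1 reached 1 FPKM, with sums of 9.81 to 11.6 FPKM and 8.58 to 9.41 FPKM. Of 7 leukocyte markers CD68, CD14 and LYZ did, with sums of 26.0 to 29.3 FPKM and 31.7 to 33.1 FPKM, whereas PTPRC (CD45), which marks leukocytes in general, stayed below 1 FPKM in every library. Markers of endothelium summed to at most 0.767 FPKM.

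The members act in different compartments of a stem-like cell. CD44 is a receptor for hyaluronan, the large sugar polymer of the extracellular matrix, and is the surface marker most often used to sort stem-like cells from HNSCC. PROM1 (CD133) is a pentaspan membrane protein used in the same way in other tumors, and LGR4 is a receptor for R-spondins, which strengthen Wnt signaling. SOX2, KLF4 and MYC are transcription factors used together with OCT4 in reprogramming of differentiated cells. BMI1 is a subunit of Polycomb repressive complex 1 (PRC1), which represses the CDKN2A locus and thereby favors self-renewal. ALDH1A3 makes retinoic acid from retinaldehyde, ALDH3A1 oxidizes aromatic and medium-chain aldehydes, and high activity of aldehyde dehydrogenases is the basis of the ALDEFLUOR assay for stem-like cells.

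A miRNA recognizes mRNAs mainly through its seed, bases 2 to 8 counted from the 5′ end, which pairs with complementary sites that are most often in the 3′ untranslated region (3′UTR). The mature miRNA is shown because its seed sets which members hold a site, with the seed in capitals. RefSeq places it on the minus strand of chromosome 9 at chr9:70810031-70810052 (GRCh38.p14), and it has 22 bases.
hsa-miR-204-5p: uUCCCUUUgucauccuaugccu
The 7-base complement of the seed, AAAGGGA, was sought on the transcript strand of the longest 3′UTR that GENCODE 29 annotates for each gene. An A directly after it makes an 8-base match, and the last 6 of its bases followed by an A make the other 7-base form. Among the members measured here, 2 held a match of at least 7 bases, CD44 and LGR4. Of the 14847 genes of the table with an annotated 3′UTR, 29.6% held one. Both sites are shown in windows of 30 bases from the GENCODE 29 transcripts, read 5′ to 3′ on the transcript strand, with the match in capitals.
CD44 site: ctcaaaaggttAAAGGGAttcccatcattg
LGR4 site: gcagggccaaaAAAGGGActgtcccagcta
The CD44 site lies in the last exon, exon 18 of 18 of the longest annotated transcript, on the plus strand. Its window spans chr11:35230623-35230652 (GRCh38), and the match within it starts 1301 bases after the stop codon in a 3′UTR of 3069 bases. A match of only 6 bases lies further down the same 3′UTR, at 2235 bases after the stop codon. The LGR4 site lies in the last exon on the minus strand. Its window spans chr11:27367381-27367410, and the match within it starts 468 bases after the stop codon in a 3′UTR of 1906 bases. The listed transcripts of both genes hold the same 7-base match in their own 3′UTR.

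**Figure D1:**
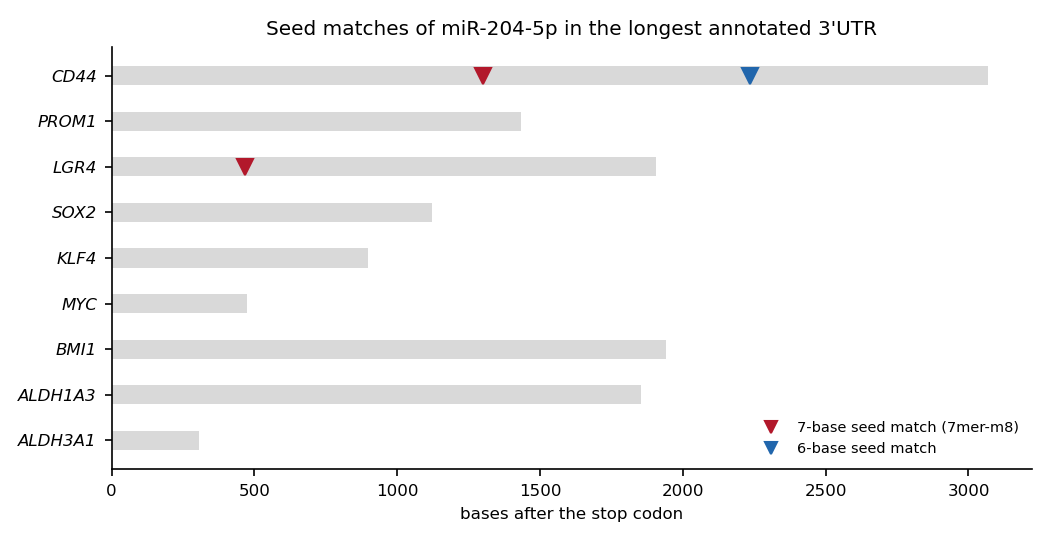
Position of seed matches of miR-204-5p in the 9 measured genes, on the longest 3′UTR that the annotation holds for each. Grey bars show the 3′UTR length in bases, red triangles mark 7-base matches and the blue triangle marks the 6-base match; triangles are present in CD44 and LGR4 and absent from the other 7 genes.

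To determine which of these genes changed with miR-204-5p, log2(FPKM + 1) was compared between the groups with limma over all genes of the table. ALDH1A3 rose 2.39 times, while CD44, SOX2 and BMI1 fell. LGR4, KLF4, MYC, ALDH3A1 and PROM1 did not pass the test. The 4 members with an adjusted p under 0.05 stand against a background of 40.8% of all genes called in either direction. In the lower direction, 3 members were called where 16.8% of all genes were, and in the higher direction 1 member where 23.9% of all genes were. This background depends on the scaling, since lower calls made up 41.3% of all calls without further scaling and 48.4% to 49.9% after scaling to equal sums, to equal medians or by quantile normalization. The groups did not overlap for 5 members, 4 lower and 1 higher, and did not overlap for 53.6% of all genes. The median log2 fold change of the 9 members was -0.13, and that of all genes was 0.03. With 3 libraries against 3, an exact two-sided permutation test of a single gene cannot go below a p of 0.1, which each of the 5 members without overlap reached.

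**Figure D2:**
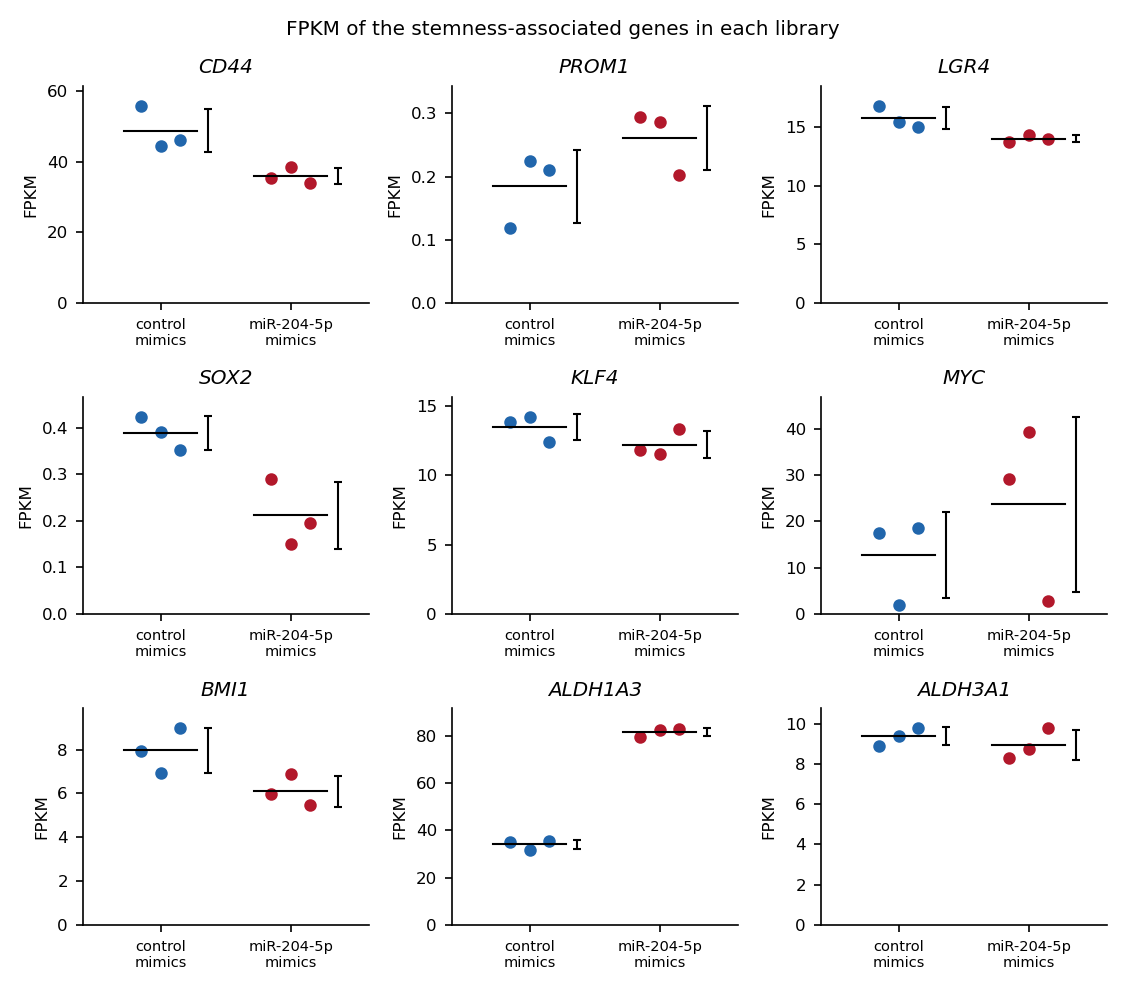
FPKM of each measured stemness-associated gene in the 3 control mimics libraries (blue) and the 3 miR-204-5p mimics libraries (red), on a linear axis from 0. Horizontal lines are group means and error bars are 1 SD; the groups are far apart for ALDH1A3, while for MYC 1 library of each group lies far below the other libraries.

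Among the surface proteins, CD44 had the highest level of all members in the control libraries, above 93.2% of genes by percentile. Its FPKM was 35.5, 38.6 and 33.9 after miR-204-5p mimics and 55.9, 44.6 and 46.1 after control mimics. The groups did not overlap, with the miR-204-5p libraries lower, and control replicate 1 was the highest of the 6. The means were 36.0 ± 2.39 (SD, n = 3) and 48.8 ± 6.13 (SD, n = 3), a ratio of 0.736. CD44 fell by 0.43 on the log2 scale (SE 0.0934, limma adjusted p = 0.0118), and it passed the test in each of the 13 alternative analyses. The listed CD44 transcript has 9 exons and 4589 bases, against 18 exons and 5732 bases for the longest annotated one, which adds the variable exons of the extracellular stem region. The values therefore do not separate standard from variant CD44.

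LGR4 was less far apart. Its FPKM was 13.7, 14.3 and 14.0 after miR-204-5p mimics and 16.8, 15.4 and 15.0 after control mimics. No library of one group reached the range of the other, but the lowest control library was close to the highest library with miR-204-5p mimics. The ratio of the means was 0.89 and the log2 fold change -0.16 (SE 0.0537, 95% interval -0.29 to -0.03), with an adjusted p of 0.0574 in limma. LGR4 passed the test when FPKM was scaled to equal sums (adjusted p = 0.0382), to equal medians (0.027) or by quantile normalization (0.0487). CD44 and LGR4, the members whose sites are printed above, had ratios of 0.736 and 0.89. Among members without such a match, the ratios that are given ran from 0.544 for SOX2 to 2.39 for ALDH1A3. Whether the sites had a part in these levels was not tested.

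PROM1 was at the lower end of detection. Its FPKM was 0.294, 0.287 and 0.203 after miR-204-5p mimics and 0.119, 0.225 and 0.21 after control mimics, and the groups overlapped. If FPKM refers to the 622 bases of its listed transcript, a target of nonsense-mediated decay, these values equal 1.04 to 2.85 inferred fragments per library. That is under a floor of 3 fragments in every library, so no fold change is given. On a longer transcript the same values would equal more fragments. The limma adjusted p of PROM1 was 0.225. The listed PROM1 transcript covers 14.3% of the length of the longest annotated one, and overlaps FGFBP2 on the same strand, a gene listed at 0 in 2 libraries and at up to 0.43 FPKM in the others. Values of PROM1 are uncertain for both reasons.

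Of the transcription factors, SOX2 was called and barely detected. Its FPKM was 0.29, 0.15 and 0.196 after miR-204-5p mimics and 0.424, 0.391 and 0.352 after control mimics. The groups did not overlap, although all values were under 1 FPKM. SOX2 has a single exon and 1 annotated transcript of 2513 bases. At the inferred depth its values correspond to 9.52, 6.0 and 7.66 fragments against 15.0, 13.7 and 14.5. These are estimates and not counts. In all, 23.2 inferred fragments stood against 43.2. The ratio of the mean FPKM was 0.544, and the log2 fold change of FPKM + 1 was -0.20 (SE 0.0546, limma adjusted p = 0.0274). With a pseudocount of 0.1 in place of 1, the log2 fold change was -0.67 (adjusted p = 0.0373), since the larger pseudocount shrinks the change of a gene this low. The call was lost without control replicate 1 (adjusted p = 0.0799), control replicate 2 (0.0711), miR-204-5p replicate 2 (0.0734) or miR-204-5p replicate 3 (0.0747). SOX2 lies within SOX2-OT, a long noncoding RNA gene on the same strand that was not analysed here, and how fragments were divided between the 2 genes is not stated.

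KLF4, a factor of differentiating squamous epithelium as well as of pluripotency, was well measured and did not pass the test. Its FPKM was 11.8, 11.5 and 13.3 after miR-204-5p mimics and 13.8, 14.2 and 12.4 after control mimics. The third library with miR-204-5p mimics lay inside the control range. The log2 fold change was -0.13, with a 95% interval of -0.31 to 0.04 and an adjusted p of 0.195 in limma, so that a fall of up to 0.31 on this scale lies within the interval.

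MYC was the member with uneven values. Its FPKM was 29.1, 39.3 and 2.73 after miR-204-5p mimics and 17.5, 1.99 and 18.6 after control mimics. In each group 1 library, miR-204-5p replicate 3 and control replicate 2, was far below the other libraries, with the highest library at 14.4 times the lowest in the first group and at 9.38 times in the second. Only 9 of the 11504 genes with a mean of at least 1 FPKM had a wider range within a group than the 3.43 log2 units of MYC. The log2 fold change of 0.69 had a 95% interval of -1.95 to 3.32 and an adjusted p of 0.657 in limma, and it was -0.20 without control replicate 2 and 1.76 without miR-204-5p replicate 3. The direction of MYC could therefore not be read from these values. The listed MYC transcript ends with a 3′UTR of 63 bases, whereas the longest annotated 3′UTR of the gene has 476 bases, and 9 transcripts are annotated.

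The genes whose values followed MYC most closely across the 6 libraries were DDX56, FAM183A and DNAJA2, with a Pearson r of log2(FPKM + 1) of 0.986, 0.977 and 0.975, the highest of 11503 genes compared. DDX56 is an RNA helicase and DNAJA2 a cochaperone of HSP70. Their own ranges were small, at 0.111, 0.504 and 0.0909 log2 units. All 4 genes were measured in the same 6 libraries, so these are descriptions of the 6 points and no test was made. The highest of 11503 correlations over 6 libraries can be this large without any link to MYC.

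BMI1 was lower after miR-204-5p mimics and close to the threshold. Its FPKM was 5.96, 6.87 and 5.47 after miR-204-5p mimics and 7.96, 6.95 and 9.0 after control mimics. The groups did not overlap, but the second libraries of each group nearly met. The means were 6.1 ± 0.71 (SD, n = 3) and 7.97 ± 1.02 (SD, n = 3), a ratio of 0.766, and BMI1 fell by 0.34 on the log2 scale (SE 0.109, limma adjusted p = 0.0479). The call was lost without control replicate 1 (adjusted p = 0.109), control replicate 3 (0.125), miR-204-5p replicate 1 (0.115) or miR-204-5p replicate 3 (0.13), and with the replicate number as a block (0.113). The read-through gene COMMD3-BMI1 shares BMI1 exons on the same strand. It was listed at 0.691 FPKM in control replicate 1, at 0.0296 FPKM in miR-204-5p replicate 1 and at 0 in the other 4 libraries, so the division of fragments between both genes is uncertain.

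Of the aldehyde dehydrogenases on the list, ALDH1A3 rose and ALDH3A1 did not pass the test. ALDH1A3 had an FPKM of 79.7, 82.6 and 82.8 after miR-204-5p mimics and of 35.2, 31.9 and 35.4 after control mimics. The libraries within a group were close together and the groups far apart, and ALDH1A3 passed from below CD44 in the control libraries to the highest level of all members. The means were 81.7 ± 1.74 (SD, n = 3) and 34.2 ± 1.99 (SD, n = 3). The log2 fold change of 1.24 (SE 0.0496, 95% interval 1.12 to 1.35) had an adjusted p of 3.94e-05 in limma, and only 0.675% of all genes had a larger absolute value. It ranged from 1.19 to 1.26 over the 13 alternatives and passed the test in each. The listed transcript has 5 exons and 571 bases, or 14.6% of the longest annotated transcript with 13 exons. An FPKM computed on that length alone would differ in level from one computed on the full mRNA. If the FPKM is that of the listed transcript alone, the rise is shown for that transcript and not for the whole gene.

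The FPKM of ALDH3A1 was 8.31, 8.72 and 9.79 after miR-204-5p mimics and 8.91, 9.39 and 9.8 after control mimics. The groups overlapped over most of their range. The log2 fold change was -0.06 with a 95% interval of -0.23 to 0.11 (limma adjusted p = 0.519).

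**Figure D3:**
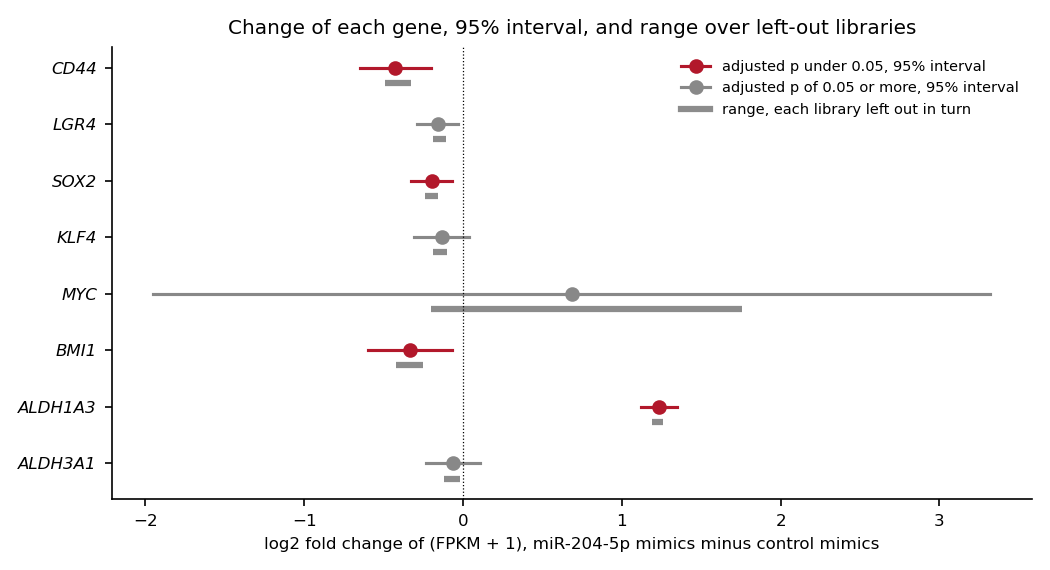
Log2 fold change of (FPKM + 1), miR-204-5p mimics minus control mimics, for 8 stemness-associated genes. PROM1 is left out because it is under 3 inferred fragments in every library when its listed transcript is used. Points are fitted values, thin lines are 95% intervals (red, adjusted p under 0.05; grey, not), and thick grey bars are the ranges when each library is left out in turn; the bar of MYC runs from -0.20 to 1.76 and crosses 0, whereas that of ALDH1A3 runs from 1.19 to 1.26.

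FPKM is a value per length, so levels can be ranked across the genes, within the limits of the listed transcripts. In the control libraries the order of mean FPKM was CD44 (48.8), ALDH1A3 (34.2), LGR4 (15.7), KLF4 (13.5), MYC (12.7), ALDH3A1 (9.37), BMI1 (7.97), SOX2 (0.389) and PROM1 (0.185). The control values of MYC spanned those of LGR4, KLF4, ALDH3A1 and BMI1, and BMI1 and ALDH3A1 overlapped each other. CD44, ALDH1A3, SOX2 and PROM1 did not overlap with any neighbour in this order. SOX2 and PROM1 were above only 16.2% and 11.1% of genes by percentile.

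**Figure D4:**
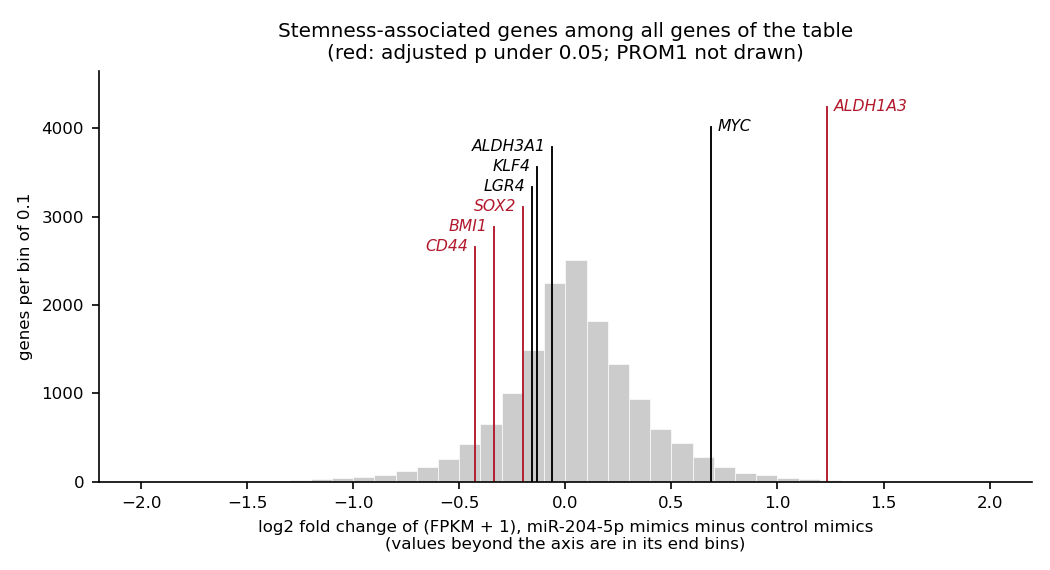
Distribution of the log2 fold change of (FPKM + 1) over all 14959 genes, in bins of 0.1, with 8 stemness-associated genes marked by lines (red, adjusted p under 0.05). ALDH1A3 at 1.24 lies in the right tail, and CD44 at -0.43, BMI1 at -0.34 and SOX2 at -0.20 lie to the left of the center, where genes are numerous.

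The members were then placed beside related genes, in 10 lists that exclude the members. In these lists 140 of 166 genes had a row, and 68 were called, 26 lower and 42 higher, which is 48.6% against the 40.8% of all genes. Their median log2 fold change was 0.03, the same as that of all genes. By list, the share called ran from 23.5% for the aldehyde dehydrogenases to 71.4% for the MYC-induced genes. The counts below stand against 16.8% of all genes called lower and 23.9% called higher. These lists were drawn up with earlier results of the data known.

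Among the 17 other aldehyde dehydrogenases, 1 fell and 3 rose. ALDH5A1, which oxidizes succinate semialdehyde in the breakdown of GABA, fell from 9.46 ± 0.282 to 7.72 ± 0.021 FPKM (SD, n = 3; limma adjusted p = 0.00523). ALDH1L2, a mitochondrial enzyme of folate metabolism, rose from 16.1 ± 0.817 to 23.7 ± 1.32 FPKM (limma adjusted p = 0.000774). The log2 fold change of ALDH1L2 was 0.53, below the 1.24 of ALDH1A3.

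Of the 20 other PRC1 subunits, 6 fell and 5 rose. CBX2, a chromodomain subunit that binds the histone mark of Polycomb repression, rose from 1.28 ± 0.0921 to 2.61 ± 0.112 FPKM (SD, n = 3; limma adjusted p = 0.00041). BMI1 was thus among subunits called in both directions.

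Of 12 partners and relatives of MYC, 2 fell and 1 rose. MXD4, which competes with MYC for MAX and represses transcription, fell from 21.4 ± 1.07 to 11.1 ± 0.941 FPKM, by 0.90 on the log2 scale (limma adjusted p = 0.00024). MYCL, a paralog of MYC, rose from 2.21 ± 0.326 to 2.93 ± 0.171 FPKM (adjusted p = 0.0381), and that call held in 4 of 13 alternatives. Of 28 genes known to be induced by MYC, 20 rose and 0 fell, where 23.9% and 16.8% of all genes did. Their median log2 fold change was 0.41, and 16 to 20 rose and 0 to 1 fell over the alternatives. ODC1, the first enzyme of polyamine synthesis, had an FPKM of 17.2, 17.9 and 15.3 after miR-204-5p mimics and 3.81, 3.76 and 4.55 after control mimics (log2 fold change 1.82, SE 0.0857, limma adjusted p = 5.77e-05). MYC itself was lowest in miR-204-5p replicate 3 and control replicate 2, where ODC1 was at 15.3 and 3.76 FPKM. In control replicates 1 and 2, ODC1 was nearly equal at 3.81 and 3.76 FPKM, while MYC was at 17.5 and 1.99 FPKM. ODC1 did not overlap between the groups. A link of MYC to ODC1 or to the other genes of this list was not tested.

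In the families of KLF4 and SOX2, genes were called in both directions. Among 14 other KLF genes 4 fell and 1 rose, and among 8 other SOX genes 3 fell and 2 rose. KLF5, a factor of basal epithelial cells, fell from 33.6 ± 1.16 to 21.3 ± 1.27 FPKM (limma adjusted p = 0.000299), and KLF13 rose from 7.1 ± 0.476 to 9.4 ± 0.402 FPKM (adjusted p = 0.00503). SOX7 fell from 19.8 ± 0.28 to 10.6 ± 1.23 FPKM (adjusted p = 0.000407), and SOX9, a factor of epithelial progenitors, rose from 0.85 ± 0.0522 to 1.47 ± 0.0643 FPKM (adjusted p = 0.00132). The control mean of SOX7 was 19.8 FPKM, against 0.389 FPKM for SOX2.

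Of 7 further pluripotency factors with a row, 3 had a mean below 1 FPKM. DNMT3B, a de novo DNA methyltransferase, fell from 14.6 ± 1.71 to 9.59 ± 0.701 FPKM (limma adjusted p = 0.00432). FOXD3 rose from 1.42 ± 0.156 to 1.94 ± 0.194 FPKM (adjusted p = 0.0278), a call that held in 8 of 13 alternatives. The other 5 were not called.

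Among 16 other stem cell and progenitor markers, 5 fell and 5 rose. TP63, the factor that maintains basal squamous progenitors, had an FPKM of 23.9, 28.1 and 30.1 after miR-204-5p mimics and 57.6, 55.4 and 54.7 after control mimics (log2 fold change -1.01, SE 0.0826, limma adjusted p = 0.000276). Its groups were far apart, and TP63 is also 1 of the 10 squamous markers summed above. ABCG2, the efflux pump behind the side population assay, rose from 2.19 ± 0.278 to 3.69 ± 0.174 FPKM (adjusted p = 0.00242).

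Around the surface receptors, genes were called in both directions only in the list of CD44 and hyaluronan. Of 5 genes of the LGR and R-spondin pathway with a row, 2 rose and 0 fell, and RNF43, a ubiquitin ligase that removes Wnt receptors, rose from 2.86 ± 0.146 to 3.67 ± 0.33 FPKM (limma adjusted p = 0.0263), a call that held in 5 of 13 alternatives. Of 13 genes that bind, make, cut or splice around CD44 and hyaluronan, 4 fell and 2 rose. EZR, which encodes ezrin, a linker between the CD44 tail and actin, fell from 82.6 ± 0.942 to 46.1 ± 0.635 FPKM (adjusted p = 3.09e-05). HMMR, another hyaluronan receptor that also serves the mitotic spindle, rose from 6.65 ± 0.709 to 9.87 ± 0.46 FPKM (adjusted p = 0.00291).

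**Figure D5:**
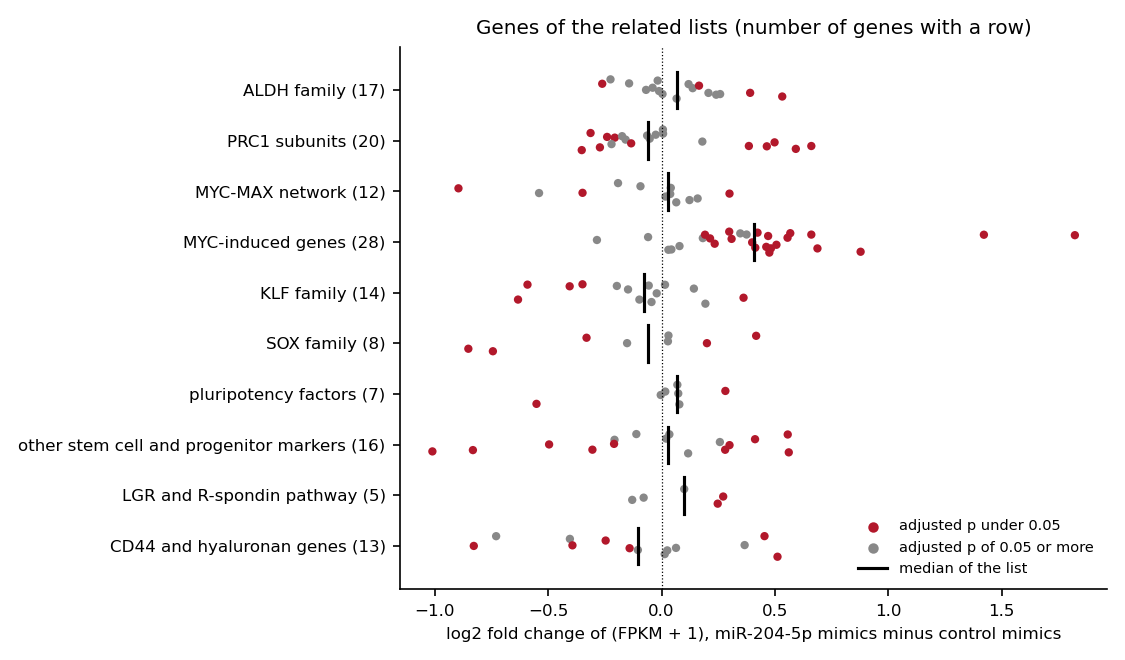
Log2 fold change of (FPKM + 1), miR-204-5p mimics minus control mimics, for the genes of 10 related lists. Each point is a gene (red, adjusted p under 0.05; grey, not) and black bars are list medians; the median of the MYC-induced genes is 0.41, and those of the other lists are between -0.10 and 0.10.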

How the data were processed

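Total RNA of UM-SCC1 cells was made into 6 TruSeq libraries and sequenced on an Illumina HiSeq X instrument. The authors deposited 1 FPKM value per gene and library for 14959 genes, each with 1 listed transcript. The submitters' processing notes name HISAT2, StringTie and hg38, without versions or settings. Whether an FPKM stands for that transcript or the whole gene is not given in the sources used here. The same table holds log ratios, p-values and FDR from the authors' comparison (edgeR), which were not used.

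As the unit is not a count, limma 3.58.1 was run on log2(FPKM + 1) (R 4.3.3, lmFit, eBayes with trend, two-sided, no filter), with Benjamini-Hochberg adjustment over all genes and a threshold of 0.05. On simulated data with 14959 genes, limma called 100 of 100 genes changed by 1 and 100 of 100 changed by 0.5 on the log2 scale. Of the unchanged genes, 6 were called. The simulation drew normal noise at a smoothed spread and changed 200 genes, all with a mean of at least 1 FPKM. It therefore does not cover low genes such as SOX2 or uneven ones such as MYC. Nor does it cover a comparison in which 40.8% of genes were called. Intervals are 95% limma intervals. Depth was inferred from FPKM times length of low genes with 1 transcript: 26.5% to 30.1% of values lay within 0.02 of a whole multiple of the best step, against a median of 3.12% to 3.43% over other steps. Too few were whole for reads to be recovered, so no count test was run. Fragment numbers cover counting error only.

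All listed transcripts of the members matched GENCODE 29 in position and length. Members and lists were chosen with earlier results of these data known. Named were all members, the called gene without overlap between groups and a mean of at least 1 FPKM that changed most in each direction of each related list, and the 3 genes most correlated with the member of widest range. One gene that this rule names is not reported here. The marker PTPRC and the overlapping genes COMMD3-BMI1 and FGFBP2 were named after their values had been seen. Alternatives were a pseudocount of 0.1, a minimum mean FPKM of 1, the replicate number as a block, equal sums, equal medians, quantile normalization, no trend, each library left out, and other 3′UTR choices. Python 3.11.15 (pandas 2.3.3, numpy 2.4.6) was used for other steps.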

Additional observations from a re-analysis of the deposited data

How the results depend on the processing

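The 4 called members became 3 with the replicate number as a replicate block and 3 when genes averaging under 1 FPKM were left out, where SOX2 was no longer tested, and 5 under each of the 3 scalings, where LGR4 joined. Leaving out each library in turn gave 2 to 3 called members, of which 1 to 2 were lower and 1 was higher; the lowest numbers came without control replicate 1 and without miR-204-5p replicate 3. The related lists held 58 to 69 called genes over all alternatives. Over 103 gene-by-alternative values for 8 members, 90 kept direction and call, 9 lost the call, 3 gained it and 1 reversed, MYC at -0.20 without control replicate 2 (range over left-out libraries -0.20 to 1.76). The labels do not say whether same-numbered libraries were paired. Their deviations from the group means correlated at -0.04, -0.02 and -0.11, and those of different-numbered libraries at -0.069 to 0.11. Such values cannot show whether libraries were prepared side by side. The number of members with a seed match of at least 7 bases was 2 in the longest, in all and in the listed 3′UTRs. SOX2 and PROM1 rest on few inferred fragments, and the cause of the lost calls was not tested.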
